A study of Mus musculus with 2 samples.

Results

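Neuronal splicing and RNA-binding regulators were followed from radial glial cells to neurons in the embryonic mouse cortex. The set comprised 10 genes chosen by symbol, *Ptbp1*, *Ptbp2*, *Elavl2*, *Elavl3*, *Elavl4*, *Nova1*, *Nova2*, *Rbfox1*, *Rbfox2* and *Rbfox3*, out of 32285 genes in the count tables, and all 10 were found and passed the filter on low counts. From radial glial cells to intermediate progenitor cells, 8 of them rose and *Ptbp1* and *Nova1* fell. Of all genes tested, 14.9% rose and 21.3% fell in that comparison. The rise of *Ptbp2* did not pass the test in 5 of 10 alternative settings. From there the 10 genes parted. *Elavl2* and *Elavl4* had their highest levels in intermediate progenitors and fell in neurons, *Elavl3* rose and then held, *Nova2* and *Rbfox1* rose at each step, *Ptbp1* fell at each step, and *Ptbp2* stayed within a narrow range.

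The data were single cell RNA sequencing (scRNA-seq) libraries of dissociated dorsal telencephalon, labelled brain hemispheres, from embryos at embryonic day 14.5. Both libraries carried the genotype label WT, and the series gives the animals as controls from an Eomes-Cre line, while the study's methods name C57BL/6J mice. The 2 libraries, 1 per sample, are called replicates 1 and 3 after their labels, and belonged to 1 group, so every comparison was made between cell classes within them. The sources used here do not say how many embryos went into a library.

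Splicing regulators of this kind bind short motifs in pre-mRNA and decide which exons are kept, and several also act on the stability and translation of mature mRNA. PTBP1 represses neuronal exons in progenitors, and one of its targets is the transcript of its relative *Ptbp2*, in which skipping of an exon leads to decay of the RNA. Neuronal ELAVL (Hu), NOVA and RBFOX proteins then shape the exon choice and the RNA stability of neurons. NeuN, the widely used neuronal marker, is the product of *Rbfox3*.

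On GRCm38.p6, the assembly of the mm10 build named for these files, the 10 genes lay on 9 chromosomes and spanned from 10.0 kb (*Ptbp1*, chromosome 10) to 1527.7 kb (*Rbfox1*, chromosome 16), with *Elavl2* and *Elavl4* both on chromosome 4. Promoters from RefSeq were matched by symbol for 9 members, and 6 of these had a single start in that table. The sequences of 4 of them are given as the 250 bases before that start. They belong to genes that moved in opposite directions from radial glia to neurons, *Ptbp1* and *Nova1* down and *Elavl3* and *Nova2* up. That start is not always the outer end of the gene. The stretches of *Nova1*, *Ptbp2* and *Rbfox3* lay inside the span of their gene, and that of *Elavl3* lay partly inside. Capitals mark CANNTG, the E-box that basic helix-loop-helix factors of the proneural kind can bind, which reads the same way on both strands.
Ptbp1, chr10:79854182-79854431, + strand: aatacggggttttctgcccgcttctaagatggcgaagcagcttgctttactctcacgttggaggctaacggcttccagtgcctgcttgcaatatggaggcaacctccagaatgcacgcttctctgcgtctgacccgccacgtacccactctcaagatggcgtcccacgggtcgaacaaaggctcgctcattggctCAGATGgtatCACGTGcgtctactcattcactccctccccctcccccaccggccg
Nova1, chr12:46818768-46819017, - strand: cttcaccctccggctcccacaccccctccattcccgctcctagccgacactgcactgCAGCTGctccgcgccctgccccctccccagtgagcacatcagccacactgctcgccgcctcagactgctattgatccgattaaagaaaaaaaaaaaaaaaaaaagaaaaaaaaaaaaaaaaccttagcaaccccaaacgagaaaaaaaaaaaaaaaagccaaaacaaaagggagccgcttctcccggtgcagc
Elavl3, chr9:22052024-22052273, - strand: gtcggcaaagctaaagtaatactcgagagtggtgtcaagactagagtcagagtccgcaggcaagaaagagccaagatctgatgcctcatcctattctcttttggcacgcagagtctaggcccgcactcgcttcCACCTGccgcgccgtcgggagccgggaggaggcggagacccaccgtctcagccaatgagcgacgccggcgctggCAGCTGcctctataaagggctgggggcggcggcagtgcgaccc
Nova2, chr7:18925638-18925887, + strand: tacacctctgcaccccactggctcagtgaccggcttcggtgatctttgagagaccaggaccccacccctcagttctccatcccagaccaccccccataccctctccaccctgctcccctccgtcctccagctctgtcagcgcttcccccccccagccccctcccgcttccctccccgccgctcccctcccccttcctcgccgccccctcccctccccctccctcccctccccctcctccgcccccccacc

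CANNTG was present in 66.2% of the 32851 RefSeq promoters cut to the same 250 bases. Among the members with a single start it occurred 2 times in *Ptbp1*, *Elavl3* and *Rbfox3*, 1 time in *Nova1* and 0 times in *Ptbp2* and *Nova2*. The letters were thus found before the starts of genes that fell and of genes that rose, and were absent before that of *Nova2*, which rose. GC content was 71.2% in *Nova2* and 72.4% in *Ptbp2*, 61.6% in *Elavl3*, 57.6% in *Ptbp1*, 52.8% in *Rbfox3* and 50% in *Nova1*, against a median of 52.4% over all promoters. These matches describe sequence and are not binding sites.

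Captured RNA molecules were counted by their unique molecular identifiers (UMIs). The libraries held 6163 and 8870 barcodes, 64182006 and 93295807 UMIs and medians of 9802 and 9754 UMIs per barcode, and 23 barcodes occurred in both. After filtering, 12003 cells formed 28 clusters, built without the 10 genes and without the other lists described below, and 13 classes were named from fixed markers, so each name carries "-like". Radial glial cell (RGC)-like cells numbered 689 and 1596 in replicates 1 and 3, intermediate progenitor cell (IPC)-like cells 543 and 1000, newborn projection neuron-like cells 1752 and 2223, deep-layer projection neuron-like cells 1123 and 1233, and medial ganglionic eminence (MGE) interneuron-like cells 336 and 220. The dorsal dissection thus held interneurons that migrate in from the ventral telencephalon. Deep-layer and newborn neuron classes were separated by marker clusters, not by birth date. Median depth was 9720 to 13100 UMIs per cell in RGC-, IPC- and projection neuron-like cells and 4545 and 4056.5 in MGE interneuron-like cells. Red blood cell-like cells (56 and 95), which should lack neural splicing regulators, served as a measure of free RNA.

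UMIs were summed per class and replicate and are given as CPM, the counts of a gene scaled to a common total of UMIs per sum. Classes were compared with edgeR's quasi-likelihood test over 15487 genes, with an adjusted p under 0.05 as the threshold. With 2 libraries the p-values measure the spread between these libraries, and a sum cannot tell fewer expressing cells from less RNA per cell. The classes came from the same cells in which the genes were then compared, so the tests describe differences between marker-defined classes.

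**Figure D1:**
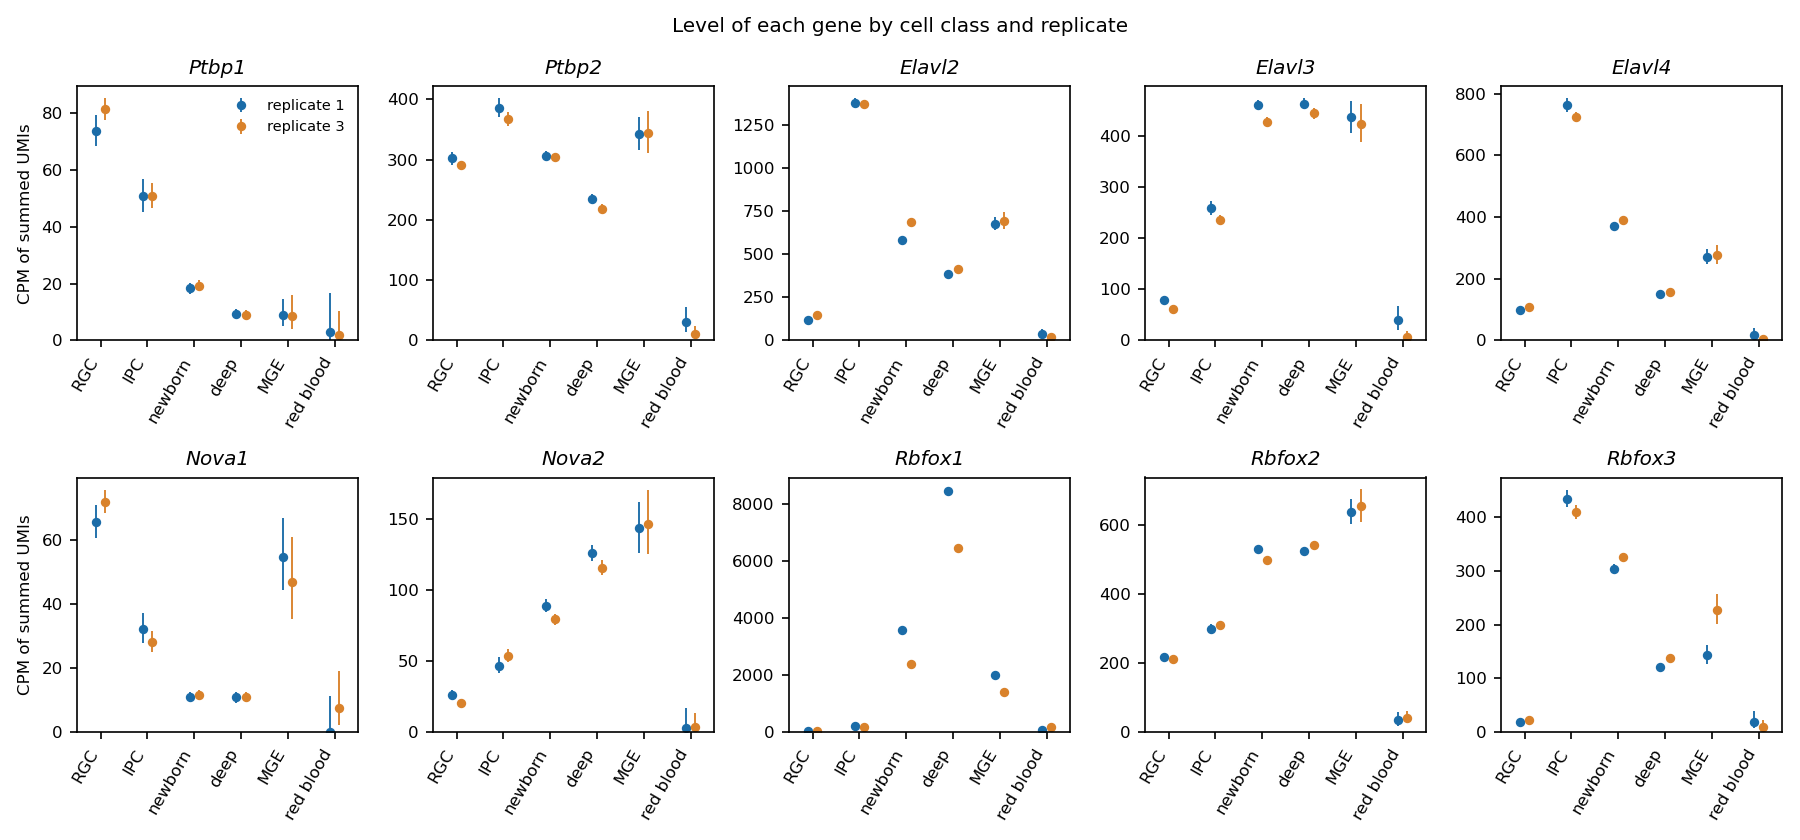
Level of each of the 10 genes in CPM of summed UMIs (y axis, linear, scale set per gene) in 6 cell classes (x axis), with 1 point per replicate and bars showing the 95% interval of counting error. *Ptbp1* falls from 73.9 and 81.3 CPM in RGC-like cells to 9.25 and 8.97 CPM in deep-layer neurons, *Elavl2*, *Elavl4* and *Rbfox3* stand highest in IPC-like cells, and *Rbfox1* reaches 8459 and 6453 CPM in deep-layer neurons.

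From RGC-like to IPC-like cells, the first step of neurogenesis, all 10 members passed the test, 8 higher and 2 lower. Of all genes tested, 36.2% passed in this comparison, 14.9% higher and 21.3% lower. The median log2 fold change of the members was 1.49, beside -0.07 over all genes. From IPC-like cells to newborn projection neuron-like cells 4 members were higher, 4 lower and 2 did not pass, against 39.7% of all genes, 21.4% higher and 18.3% lower. With library sizes in place of TMM factors, 41.7% of the called genes were higher in this step, compared with 53.8%. The members' calls in this step were as many under both scalings.

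From newborn to deep-layer projection neuron-like cells 2 members were higher, 5 lower and 3 did not pass, against 25% of all genes, 14.2% higher and 10.8% lower. Over the whole path, deep-layer neurons against RGC-like cells, 7 members were higher, 2 lower and *Ptbp2* did not pass, where 64.1% of all genes passed, 32.5% higher and 31.6% lower. MGE interneuron-like cells differed from deep-layer neurons in 5 members, 4 higher and 1 lower, against 34.8% of all genes, 15.2% higher and 19.7% lower. Here the share of higher genes among those called depended on scaling, with 43.5% by TMM, 56.6% by library sizes and 59.9% in DESeq2. In the last 2 comparisons 90% and 50% of the members passed, beside these 64.1% and 34.8% of all genes.

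**Figure D2:**
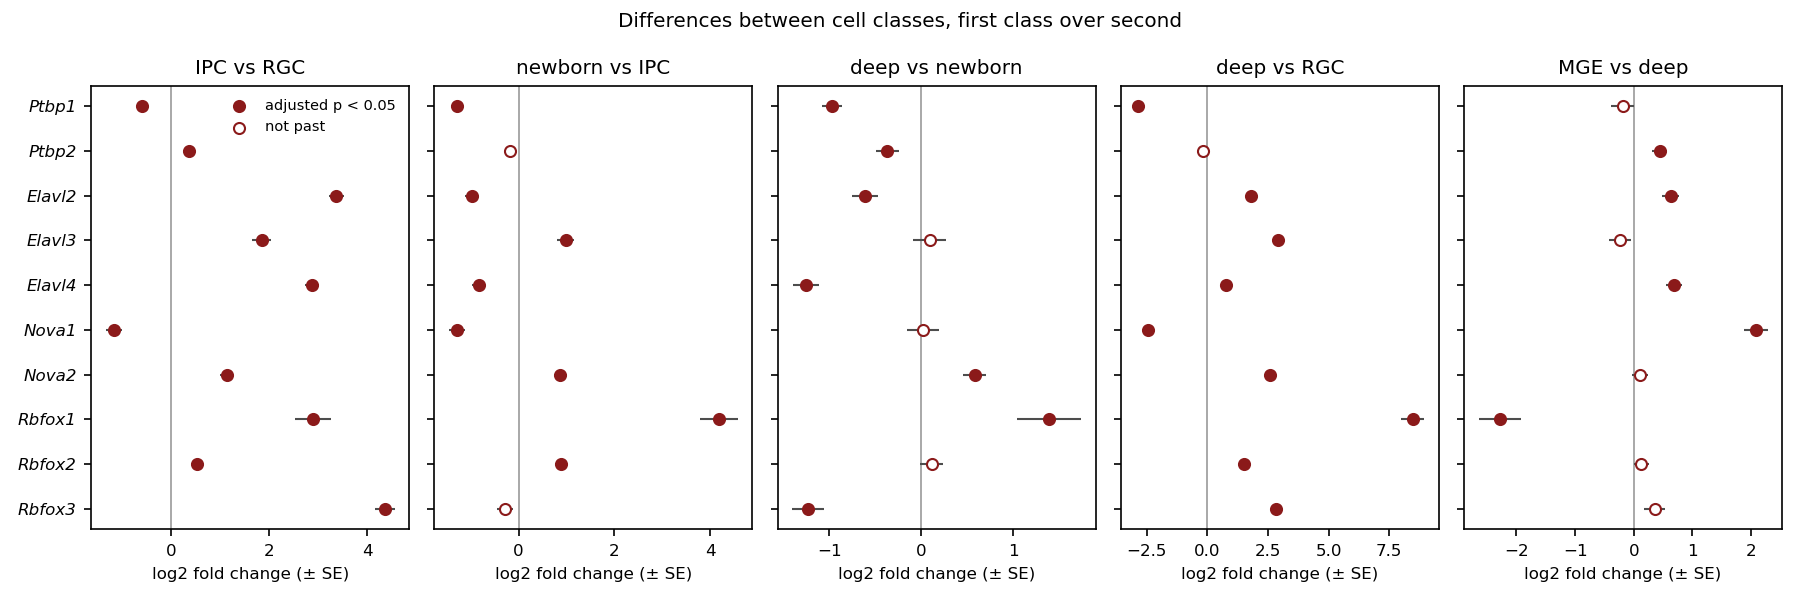
Log2 fold change (x axis, scale set per panel) with its SE for each of the 10 genes (y axis) in 5 comparisons of cell classes, filled where the adjusted p was under 0.05. All 10 points are filled for IPC against RGC, and *Rbfox1* lies at 8.47 between deep-layer neurons and RGCs. The share of RGC-like cells with a *Rbfox1* UMI was not distinguishable from that of red blood cell-like cells.

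*Ptbp1*, which encodes the progenitor-stage splicing repressor, fell in steps. Its level was 73.9 and 81.3 CPM in RGC-like cells, then 50.7 and 50.8 in IPC-like cells, 18.3 and 19.2 in newborn neurons, and 9.25 and 8.97 in deep-layer neurons, in replicates 1 and 3. No 2 of these classes overlapped. The log2 fold change was -0.60 ± 0.10 (SE) into IPC-like cells, -1.29 ± 0.11 into newborn neurons and -0.97 ± 0.11 into deep-layer neurons, with edgeR adjusted p of 0.000829, 2.05e-06 and 7.62e-05. With predicted doublets kept, the first and the last of these steps did not pass (-0.40 and -0.32, edgeR adjusted p = 0.0783 and 0.216). Over the whole path the difference was -2.86 ± 0.11. MGE interneuron-like cells, at 8.96 and 8.68 CPM from 16 and 10 UMIs, did not differ from deep-layer neurons at this depth, with a log2 fold change of -0.19 ± 0.20.

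Per cell, with each cell thinned to 3000 UMIs, a *Ptbp1* UMI was found in 19.3% and 20.7% of RGC-like cells, in 11.9% and 12.6% of IPC-like cells and in 3.02% and 2.27% of deep-layer neurons. In red blood cell-like cells the shares were 0 of 47 cells, which allows up to 6.38%, and 1.64% of 61 cells. With so few red blood cell-like cells, these shares could not tell the remaining *Ptbp1* in deep-layer and MGE interneuron-like cells from free RNA. The size of the fall over the whole path is not settled. The gene was not restricted to the neural lineage. Its level was 148 and 145 CPM in the 16 and 41 endothelial-like cells, 85.0 and 114 CPM in pericyte-like cells and 81.8 and 78.0 CPM in meningeal-like cells, none of which entered the fit.

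*Ptbp1* also differed among clusters of 1 class. Among the RGC-like clusters it was highest in cluster 17, led by the mitotic genes *Cenpa* and *Cdc20*, with 101 and 99.3 CPM, and reached 80.9 and 89.9 CPM in cluster 6, led by histone genes and *Top2a*. It was lower in cluster 4, led by *Mt3* and *Fabp7*, at 59.6 and 73.9 CPM. The cycling IPC-like cluster 16, led by *Rrm2* and *Spc25*, held 74.5 and 64.0 CPM, above the 42.5 and 46.0 CPM of cluster 3, led by *Kif26b* and *Eomes*. In deep-layer cluster 2, led by *Hs3st4*, the level was 5.51 and 6.15 CPM. Clusters were drawn from these same cells, and these levels carry no test.

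*Ptbp2*, the neuronal paralogue whose protein takes over from PTBP1 early in differentiation, changed little at the RNA level. Its levels were 302 and 291 CPM in RGC-like cells, then 386 and 367 in IPC-like cells, 306 and 304 in newborn neurons, 235 and 218 in deep-layer neurons and 342 and 345 in MGE interneuron-like cells. The largest of its log2 fold changes in the 5 comparisons was 0.45 ± 0.13, MGE interneuron-like cells over deep-layer neurons (edgeR adjusted p = 0.0181), which did not pass without the filter on low counts (adjusted p = 0.0869) or with predicted doublets kept (adjusted p = 0.0784). The rise into IPC-like cells (0.36 ± 0.12, adjusted p = 0.0391) and the fall into deep-layer neurons (-0.37 ± 0.12, adjusted p = 0.0475) lay close to the threshold, and 5 and 4 of 10 alternative settings did not pass it. Between RGC-like cells and deep-layer neurons the difference was -0.18 ± 0.12 and did not pass (adjusted p = 0.232).

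*Ptbp2* transcripts were thus captured in RGC-like cells, where 57.9% and 53.7% of thinned cells held a UMI against 2.13% and 1.64% of red blood cell-like cells. UMI counts at the 3' end do not show which exons a transcript contains. Among UMIs of *Ptbp1*, *Ptbp2* and *Ptbp3* together, the *Ptbp1* share was 17.6% and 19.8% in RGC-like cells, then 10.8% and 11.4% in IPC-like cells, 5.14% and 5.45% in newborn neurons, 3.58% and 3.73% in deep-layer neurons and 2.12% and 2.10% in MGE interneuron-like cells. The *Ptbp2* share rose over the same classes from 71.9% and 70.8% to 90.9% and 90.8% in deep-layer neurons, and was 81.1% and 83.2% in MGE interneuron-like cells, where *Ptbp3* held 16.7% and 14.7%. Shares are of captured UMIs, not per transcript length, so they are read across classes and not between genes.

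Both genes were read in the same cells. In thinned RGC-like cells 11.7% and 11% held UMIs of both, where the product of the separate shares gave 11.2% and 11.1%. In IPC-like cells the values were 7.05% and 8.09% against products of 7.69% and 8.05%. A separation of cells into *Ptbp1*-only and *Ptbp2*-only groups was not seen at this depth in these classes.

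**Figure D3:**
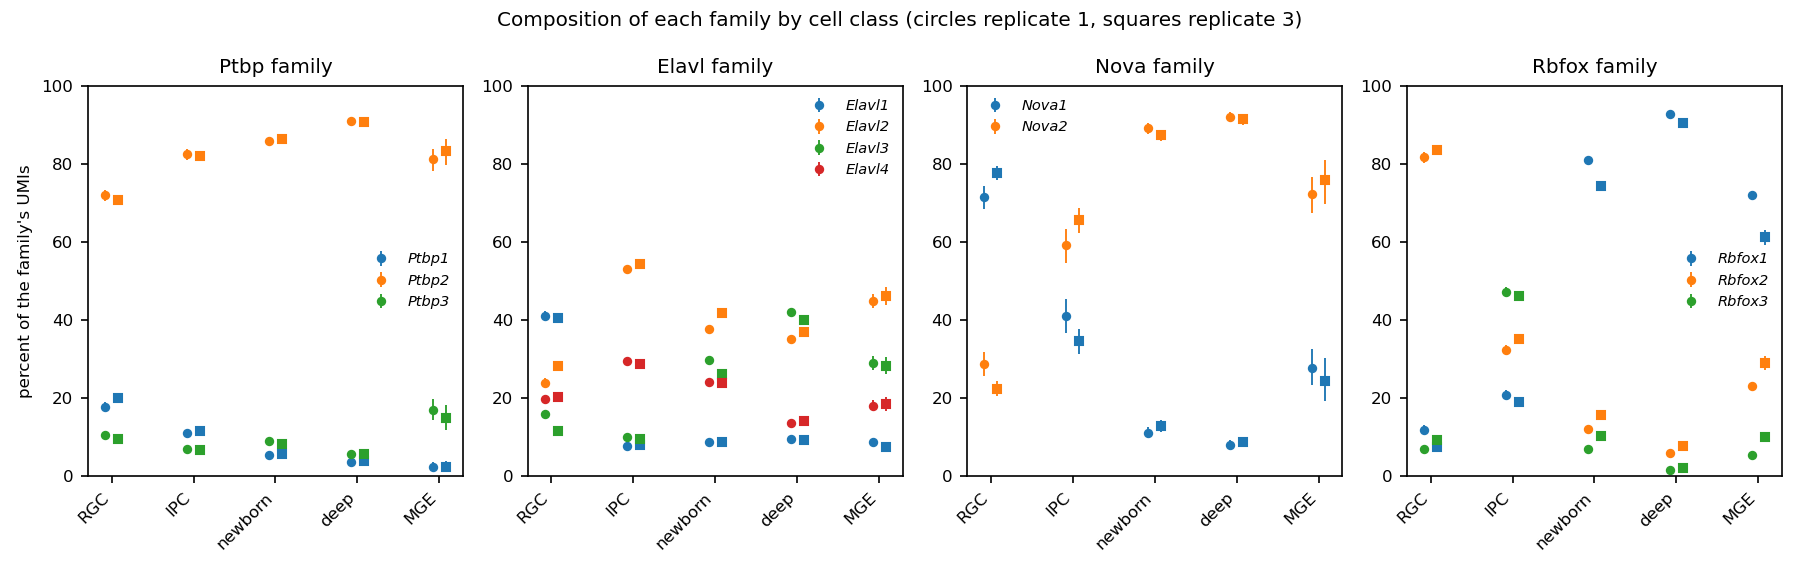
Percent of the UMIs of each gene family (y axis) held by each member, in 5 neural classes (x axis), circles for replicate 1 and squares for replicate 3, with 95% Wilson intervals. The *Nova1* share falls from 71.5% and 77.8% in RGCs to 7.88% and 8.59% in deep-layer neurons, and the *Rbfox1* share rises from 11.6% and 7.24% to 92.9% and 90.5%.

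The neuronal Hu genes, which encode RNA-binding proteins that stabilise and splice AU- and U-rich transcripts, all rose at the RGC to IPC step. *Elavl2* (HuB) went from 119 and 149 CPM in RGC-like cells to 1378 and 1376 CPM in IPC-like cells, its highest level in any class. It stood at 584 and 687 CPM in newborn neurons and 385 and 412 CPM in deep-layer neurons. The replicates of each class did not overlap those of the next. The log2 fold changes were 3.37 ± 0.16, -0.98 ± 0.15 and -0.61 ± 0.14, with edgeR adjusted p of 1.08e-07, 0.000209 and 0.00832, and the last did not pass with predicted doublets kept (-0.52, adjusted p = 0.0917) or at resolution 0.6 (-0.49, adjusted p = 0.0974).

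*Elavl4* (HuD) followed a like course. It measured 98.2 and 107 CPM in RGC-like cells, then 764 and 725 in IPC-like cells, 372 and 391 in newborn neurons and 149 and 157 in deep-layer neurons. Its log2 fold changes were 2.87 ± 0.15, -0.83 ± 0.14 and -1.26 ± 0.14, so that deep-layer neurons kept only 0.78 ± 0.14 over RGC-like cells (edgeR adjusted p = 0.000395). A UMI was found in 86.8% and 83.4% of thinned IPC-like cells, and in 32.4% and 33.3% of deep-layer neurons.

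*Elavl3* (HuC) behaved otherwise. It rose from 78.7 and 60.6 CPM to 259 and 235 CPM in IPC-like cells, then to 461 and 428 CPM in newborn neurons, and was 463 and 444 CPM in deep-layer neurons. The first 2 steps gave 1.85 ± 0.19 and 0.98 ± 0.18 (edgeR adjusted p = 2.17e-05 and 0.00119), while newborn and deep-layer neurons overlapped, with 0.09 ± 0.18 (adjusted p = 0.769). Of these 3 Hu genes it was the one whose level in the neurons exceeded that in IPC-like cells.

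Among UMIs of the *Elavl* family, that of the ubiquitous *Elavl1* (HuR) made up 40.9% and 40.4% at the RGC-like stage, compared with 7.56% and 7.92% at the IPC-like stage. The *Elavl2* share was largest in IPC-like cells, at 53.1% and 54.2%, and the *Elavl3* share in deep-layer neurons, at 42.0% and 39.8%. In MGE interneuron-like cells *Elavl2* was 677 and 694 CPM and *Elavl4* 271 and 276 CPM, both above deep-layer neurons by 0.63 ± 0.15 and 0.69 ± 0.14 on the log2 scale (edgeR adjusted p = 0.00622 and 0.00329). *Elavl3* was 436 and 424 CPM there and did not differ past the threshold (-0.23 ± 0.19). Cajal-Retzius-like cells, 31 and 65 in number and outside the fit, had 567 and 666 CPM of *Elavl2* and 406 and 477 CPM of *Elavl4*.

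Within the newborn class, the Hu genes varied by cluster. Cluster 5, led by *Cdh8* and *Unc5d*, had 909 and 958 CPM of *Elavl2* and 670 and 630 CPM of *Elavl4*. Cluster 1, led by *Cdh12*, had 437 and 477 CPM of *Elavl2* and 241 and 255 CPM of *Elavl4*. *Elavl3* was 390 and 389 CPM in the former and 489 and 446 CPM in the latter, the opposite order.

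**Figure D4:**
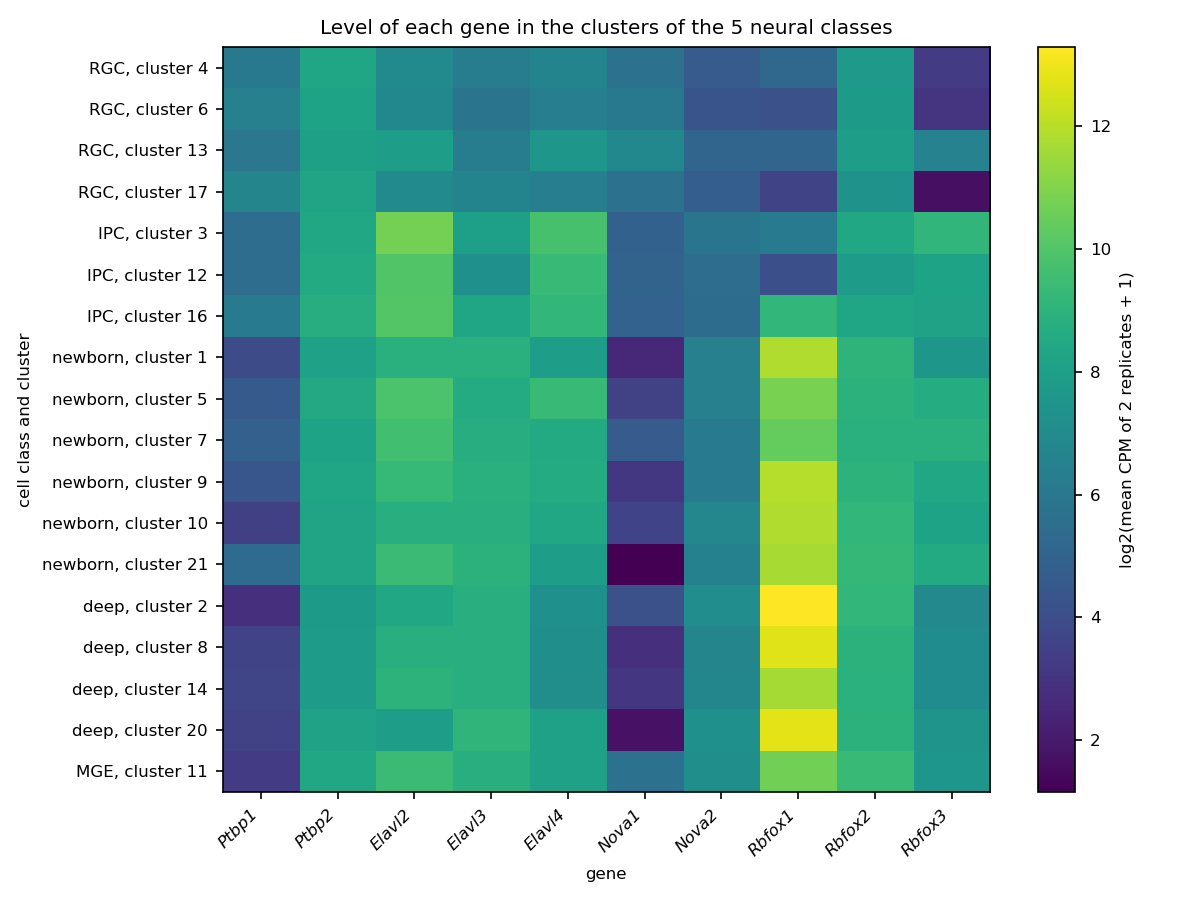
Level of each of the 10 genes (x axis) in the 18 clusters of the 5 neural classes (y axis), as log2 of the mean CPM of 2 replicates plus 1 (colour). *Elavl2*, *Elavl4* and *Rbfox3* are each brightest in IPC-like cluster 3, and *Rbfox1* is brightest in deep-layer cluster 2.

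NOVA proteins bind YCAY clusters and direct splicing of synaptic transcripts. The genes of the pair moved in opposite directions. *Nova1* was 65.6 and 72.1 CPM in RGC-like cells, then 32.3 and 28.1 in IPC-like cells, 10.8 and 11.5 in newborn neurons and 10.8 in both replicates of deep-layer neurons. *Nova2* was 26.2 and 20.6 CPM in RGC-like cells, then 46.7 and 53.5 in IPC-like cells, 88.9 and 79.3 in newborn neurons and 126 and 116 in deep-layer neurons.

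*Nova1* fell by 1.18 ± 0.16 into IPC-like cells and by 1.28 ± 0.17 into newborn neurons on the log2 scale (edgeR adjusted p = 0.000197 and 0.000102) and did not change past the threshold after that (0.01 ± 0.17). *Nova2* rose at each step, by 1.13 ± 0.14, 0.87 ± 0.13 and 0.58 ± 0.12 (adjusted p = 7.09e-05, 0.000217 and 0.00484), the last of which did not pass with predicted doublets kept (0.41, adjusted p = 0.177). Of the UMIs of the pair, *Nova1* held 71.5% and 77.8% in RGC-like cells, then 40.9% and 34.4% in IPC-like cells, 10.9% and 12.7% in newborn neurons and 7.88% and 8.59% in deep-layer neurons. In both replicates the *Nova1* share was lower in each of these classes than in the one before. It is read across classes and does not compare the amounts of the pair.

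Among the neuron classes of the fit, the interneurons were the exception for *Nova1*. It was 54.9 and 46.9 CPM in MGE interneuron-like cells, from 98 and 54 UMIs, and exceeded deep-layer neurons by 2.08 ± 0.20 (edgeR adjusted p = 1.62e-05). *Nova2* was 143 and 147 CPM in these cells and did not differ from deep-layer neurons past the threshold (0.11 ± 0.14). In caudal ganglionic eminence (CGE) interneuron-like cells, 379 and 25 in number and outside the fit, *Nova1* was 70.0 and 110 CPM, the latter from 14 UMIs. Cajal-Retzius-like cells, also outside the fit, held 34.3 and 41.5 CPM of *Nova1*, from 19 and 38 UMIs. RGC-like cluster 13, led by *Ltbp1* and *Rmst*, had 104 and 123 CPM of *Nova1*, and hem and choroid plexus-like cells 76.4 and 48.3 CPM. Thinned red blood cell-like cells held 0 *Nova1* UMIs in 47 and 61 cells, which allows shares up to 6.38% and 4.92%. A *Nova1* UMI was found in 2.75% and 3.53% of deep-layer neurons and in 2.87% and 2.80% of newborn neurons. So few red blood cell-like cells could not tell these shares from free RNA, and the size of differences against these 2 neuron classes is not settled.

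RBFOX proteins bind GCAUG and act on neuronal exon networks. *Rbfox1* spanned the widest range of the set. Its level was 30.9 and 18.2 CPM in RGC-like cells, then 192 and 166 in IPC-like cells, 3562 and 2379 in newborn neurons and 8459 and 6453 in deep-layer neurons. Each class lay above the one before in both replicates. The log2 fold changes were 2.89 ± 0.38, 4.18 ± 0.39 and 1.39 ± 0.35, with edgeR adjusted p of 0.000121, 5.45e-06 and 0.0119, and the last did not pass when clusters were drawn at resolution 0.6 (1.13, adjusted p = 0.114).

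In RGC-like cells a *Rbfox1* UMI occurred in 4.49% and 4.04% of thinned cells, near the 2.13% and 4.92% of red blood cell-like cells, whose summed level was 81.2 and 161 CPM. The RGC-like share was thus not distinguishable from that of red blood cell-like cells. Their sums were 27 and 86 UMIs held by 5.36% and 4.21% of cells, so they rest on few cells and set no level of free RNA. The difference of 8.47 ± 0.48 from RGC-like cells to deep-layer neurons rests on a denominator that was not shown to be expression. The same holds for the rise into IPC-like cells, and the size of both is not settled. The RGC-like mean was 64.2 CPM with predicted doublets kept. In deep-layer neurons 99.3% and 99.1% of thinned cells held a UMI. *Rbfox1* was higher in replicate 1 in all 5 neural classes of the fit, by 1.16 to 1.69 times, while median mitochondrial shares were 2.62% to 4.96% in replicate 1 and 3.17% to 5.89% in replicate 3, and the part of this in the difference was not tested.

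*Rbfox1* is the longest of the set, and whether intronic reads were counted is not given in the sources used here. Reads primed inside introns would add to a gene of this span. Within deep-layer neurons it ranged by cluster from 3453 and 3073 CPM in cluster 14, led by *Slit3* and *Crym*, to 11190 and 8905 CPM in cluster 2, led by *Hs3st4*. Among IPC-like clusters it was 18 and 15 CPM in cluster 12, led by *Gadd45g* and *Smoc1*, and 529 and 646 CPM in the cycling cluster 16. The median depth of cluster 16 was 13070 UMIs per cell, against 9977 in cluster 12, and the part of depth or of remaining doublets in this difference was not tested. MGE interneuron-like cells had 2003 and 1391 CPM, lower than deep-layer neurons by a log2 fold change of -2.29 ± 0.36 (edgeR adjusted p = 0.000509). In Cajal-Retzius-like cells the level was 32.5 and 121 CPM, and in meningeal-like cells 699 and 395 CPM.

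*Rbfox2*, expressed in many tissues, rose more evenly. It was 218 and 211 CPM in RGC-like cells, then 298 and 311 in IPC-like cells, 530 and 498 in newborn neurons, 525 and 541 in deep-layer neurons and 639 and 656 in MGE interneuron-like cells. The log2 fold changes of the first 2 steps were 0.52 ± 0.13 and 0.89 ± 0.13 (edgeR adjusted p = 0.00756 and 0.000169), and newborn and deep-layer neurons overlapped (0.11 ± 0.13). At resolution 0.6 the first 2 steps gave 0.77 and 0.76 and did not pass (edgeR adjusted p = 0.066 and 0.0713), nor did the first with predicted doublets kept (0.37, adjusted p = 0.0998). Of the *Rbfox* family's UMIs, *Rbfox2* held 81.7% and 83.7% in RGC-like cells and 5.76% and 7.59% in deep-layer neurons. Outside the neural classes it was 344 and 357 CPM in meningeal-like cells and 283 and 236 CPM in pericyte-like cells.

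*Rbfox3*, the NeuN gene, was already at its highest level in IPC-like cells. It was 17.9 and 22.8 CPM in RGC-like cells, then 435 and 410 in IPC-like cells, 304 and 326 in newborn neurons and 121 and 137 in deep-layer neurons. It rose by 4.36 ± 0.20 into IPC-like cells (edgeR adjusted p = 1.00e-07), did not pass into newborn neurons (-0.29 ± 0.17, adjusted p = 0.212), and fell into deep-layer neurons (-1.23 ± 0.18, adjusted p = 0.000335). With the stricter filter on cells it passed as lower in newborn neurons (-0.63, edgeR adjusted p = 0.016). A UMI was found in 57.5% and 58.6% of thinned IPC-like cells, 52.4% and 56.8% of newborn neurons and 25.3% and 30.8% of deep-layer neurons.

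In RGC-like cells 3.29% and 3.85% of thinned cells held a *Rbfox3* UMI, against 2 of 47 and 0 of 61 red blood cell-like cells. The latter allows up to 4.92%, so the share of the whole class was not distinguishable from that of red blood cell-like cells. The size of the rise into IPC-like cells is thus not settled. The RGC-like sum was not even over clusters, so the share of the whole class does not describe each of them. Cluster 13 had 97.9 and 86.8 CPM, and clusters 4, 6 and 17 had 0 to 9.63 CPM. In MGE interneuron-like cells *Rbfox3* was 144 and 228 CPM, and the difference from deep-layer neurons did not pass (0.36 ± 0.18, adjusted p = 0.160).

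The likeness of levels over the 12 class sums, as Pearson's r of log2(CPM + 1) among 5319 genes reaching 50 CPM in a class, was highest with *Larp7* for *Ptbp1* (r = 0.996), *Dhx9* for *Ptbp2* (0.999), *Myt1* for *Elavl2* (0.988), *Gpc2* for *Elavl3* (0.993) and *Rybp* for *Elavl4* (0.989). It was highest with *Pola1* for *Nova1* (0.990), *Tanc2* for *Nova2* (0.992), *Actl6b* for *Rbfox1* (0.977), *Sestd1* for *Rbfox2* (0.997) and *Scrt2* for *Rbfox3* (0.975). The sums share 2 libraries and the red blood cell-like sums lie far from the rest. Over the 10 neural sums alone the first genes were *Hnrnpu* for *Ptbp1* (0.997), *Numa1* for *Ptbp2* (0.979), *Mob3b* for *Nova1* (0.994), *Phactr3* for *Nova2* (0.994) and *Klhl29* for *Rbfox1* (0.994).

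Among the members themselves, over the 10 neural sums, *Elavl2*, *Elavl4* and *Rbfox3* were alike (r = 0.941 for *Elavl2* with *Elavl4*, 0.959 for *Elavl2* with *Rbfox3* and 0.898 for *Elavl4* with *Rbfox3*). *Nova2* and *Rbfox2* were alike (0.981), and *Elavl3* with *Nova2* gave 0.937. *Ptbp1* was opposite to *Nova2* (-0.970) and *Rbfox2* (-0.968). *Ptbp2* had no r above 0.69 in size with any other member. These values describe 5 classes in 2 libraries and carry no test.

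Other RNA-binding genes were read from 6 lists. In the list of other neural splicing regulators, deep-layer neurons exceeded RGC-like cells in 10 genes and fell short in 5 of 17 tested, with a median log2 fold change of 2.24 beside 0.01 over all genes, and 64.1% of all genes passing. *Khdrbs2*, which encodes the KH-domain protein SLM1, gave 5.63 ± 0.29 and *Celf6* 5.37 ± 0.26, while *Mbnl3*, of the muscleblind family, gave -5.31 ± 0.36 (edgeR adjusted p = 1.43e-08, 1.91e-08 and 1.09e-07). *Mbnl3* averaged 0.39 CPM and *Celf6* 0.33 CPM in the class where it was lower. At the first step, *Srrm4*, the activator of neuronal microexons, rose by 4.37 ± 0.21 and *Srrm3*, its relative, by 2.63 ± 0.22 from RGC-like to IPC-like cells, while *Raver2*, whose product binds PTB, fell by 2.90 ± 0.22 (adjusted p = 1.09e-07, 5.53e-06 and 5.23e-06). In that comparison 10 genes of the list were higher and 4 lower, 82.4% called beside 36.2% of all genes.

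At the later steps *Khdrbs2* rose by 3.05 ± 0.26 and *Celf5* by 2.76 ± 0.14 into newborn neurons, and *Celf6* rose by 1.72 ± 0.18 into deep-layer neurons (edgeR adjusted p = 2.86e-06, 8.16e-08 and 7.03e-05). Into newborn neurons 10 of the list were higher and 2 lower (70.6% called, against 39.7% of all genes), and into deep-layer neurons 6 were higher and 1 lower (41.2% against 25%). Between MGE interneuron-like cells and deep-layer neurons 5 were higher and 6 lower (64.7% called, against 34.8% of all genes), with *Rbm24* at -4.15 ± 0.34, *Mbnl3* at 2.63 ± 0.64 and *Khdrbs3* at -1.96 ± 0.14 (adjusted p = 7.61e-06, 0.00789 and 1.40e-06). *Mbnl3* had the very low level in deep-layer neurons given above, so the size of its difference is not settled.

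The progenitor and ubiquitous RNA-binding relatives went the other way. Of 18 tested, 2 were higher and 13 lower in deep-layer neurons than in RGC-like cells, with a median of -1.25, where 32.5% of all genes were higher and 31.6% lower. *Zfp36l1* and *Zfp36l2*, which promote decay of AU-rich mRNAs, gave -6.62 ± 0.30 and -3.72 ± 0.31, whereas *Lin28b*, a let-7 regulator, gave 4.04 ± 0.37 (edgeR adjusted p = 5.02e-09, 6.29e-07 and 3.08e-06). Deep-layer neurons held 20.8 CPM of *Lin28b* on average, against an RGC-like mean of 1.15 CPM. At the IPC step 2 of the list were higher and 6 lower (44.4% called, against 36.2% of all genes), with *Qk*, the quaking splicing factor, at -1.68 ± 0.17 (adjusted p = 1.56e-05). Into newborn neurons 3 were higher and 9 lower (66.7% against 39.7%), and into deep-layer neurons 1 was higher and 6 lower (38.9% against 25%), *Ptbp3* among these at -1.08 ± 0.14 (adjusted p = 0.000146).

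MGE interneuron-like cells differed from deep-layer neurons in the same list, with 6 higher and 1 lower, 38.9% called beside 34.8% of all genes. *Rbms3* was 2227 CPM against 11.5 CPM, a log2 fold change of 7.42 ± 0.37, *Qk* gave 3.28 ± 0.18 and *Rbms1* 2.92 ± 0.26 (edgeR adjusted p = 1.04e-07, 1.72e-07 and 6.66e-06). *Qk*, at 949 CPM, was near its RGC-like mean of 916 CPM in these interneurons.

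General splicing factors were mostly lower where they passed. Of 13 SR proteins, 1 was higher and 10 were lower in deep-layer neurons than in RGC-like cells, with a median of -0.85. This was 84.6% called, against 64.1% of all genes, made up of 32.5% higher and 31.6% lower. *Srsf9* gave -1.72 ± 0.13 and *Srsf2* -1.30 ± 0.11, and *Srsf12* rose by 3.37 ± 0.28, from 1.61 to 16.5 CPM (edgeR adjusted p = 2.68e-07, 1.08e-06 and 5.71e-07). Of 21 hnRNP proteins, 0 were higher and 14 lower in edgeR, and the 66.7% called lay near the 64.1% of all genes, while all 66.7% were lower, against 31.6% of all genes. Their median was -0.58, with *Hnrnpf* at -1.68 ± 0.12, *Hnrnpa3* at -1.01 ± 0.13 and *Hnrnpd* at -1.0 ± 0.12 (adjusted p = 2.21e-07, 2.72e-05 and 1.34e-05). In the 3 successive steps 23.1%, 61.5% and 15.4% of the SR proteins and 28.6%, 19% and 38.1% of the hnRNP proteins were called, against 36.2%, 39.7% and 25% of all genes, so several of these shares lay below the background.

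RNA transport and translation control genes were 6 higher and 3 lower of 15 in deep-layer neurons over RGC-like cells, with a median of 0.28. The 60% called lay below the 64.1% of all genes. The cytoplasmic polyadenylation factors led, with *Cpeb3* at 3.02 ± 0.15, *Cpeb4* at 2.89 ± 0.14 and *Cpeb2* at 1.60 ± 0.19 (edgeR adjusted p = 1.27e-08, 9.67e-09 and 2.52e-05). *Cpeb4* rose at the IPC step by 1.92 ± 0.14 and *Cpeb2* into newborn neurons by 1.94 ± 0.19 (adjusted p = 1.85e-06 and 1.39e-05). *Cpeb2* was higher again in MGE interneuron-like cells by 1.83 ± 0.20 (adjusted p = 5.54e-05).

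miR-124 acts on *Ptbp1* mRNA, and REST with the small phosphatases CTDSP1, CTDSP2 and CTDSPL represses the miR-124 genes in cells that are not neurons. The host transcript *Mir124a-1hg* was 1.68 CPM on average in RGC-like cells, 15.2 in IPC-like cells, 63.9 in newborn neurons and 88.5 in deep-layer neurons, a rise of 2.95 ± 0.21, 2.19 ± 0.16 and 0.53 ± 0.14 (edgeR adjusted p = 1.43e-06, 7.91e-07 and 0.0145). *Rest* fell by 3.14 ± 0.26 into IPC-like cells, from 48.0 to 5.35 CPM, and *Ctdspl* by 2.20 ± 0.19 (adjusted p = 4.34e-06 and 5.92e-06). From newborn to deep-layer neurons *Rest* rose by 0.88 ± 0.24 (edgeR adjusted p = 0.0201), in the step where *Mir124a-1hg* also rose. *Ctdspl* averaged 61.6 CPM in RGC-like cells, then 13.2 in IPC-like cells, 19.5 in newborn neurons and 24.6 in deep-layer neurons. *Ctdsp1* gave -3.39 ± 0.26 over the whole path (adjusted p = 2.97e-07). Host transcripts and not mature miRNAs were counted. In the order of steps, 2, 3 and 2 of the 6 genes were higher and 4, 1 and 2 lower. Of all genes, 36.2%, 39.7% and 25% passed in these steps. MGE interneuron-like cells had 2 higher and 0 lower in edgeR than deep-layer neurons. This was 33.3% called, just below the 34.8% of all genes. *Rest* gave 1.19 ± 0.31 in that comparison (edgeR adjusted p = 0.0107).

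**Figure D5:**
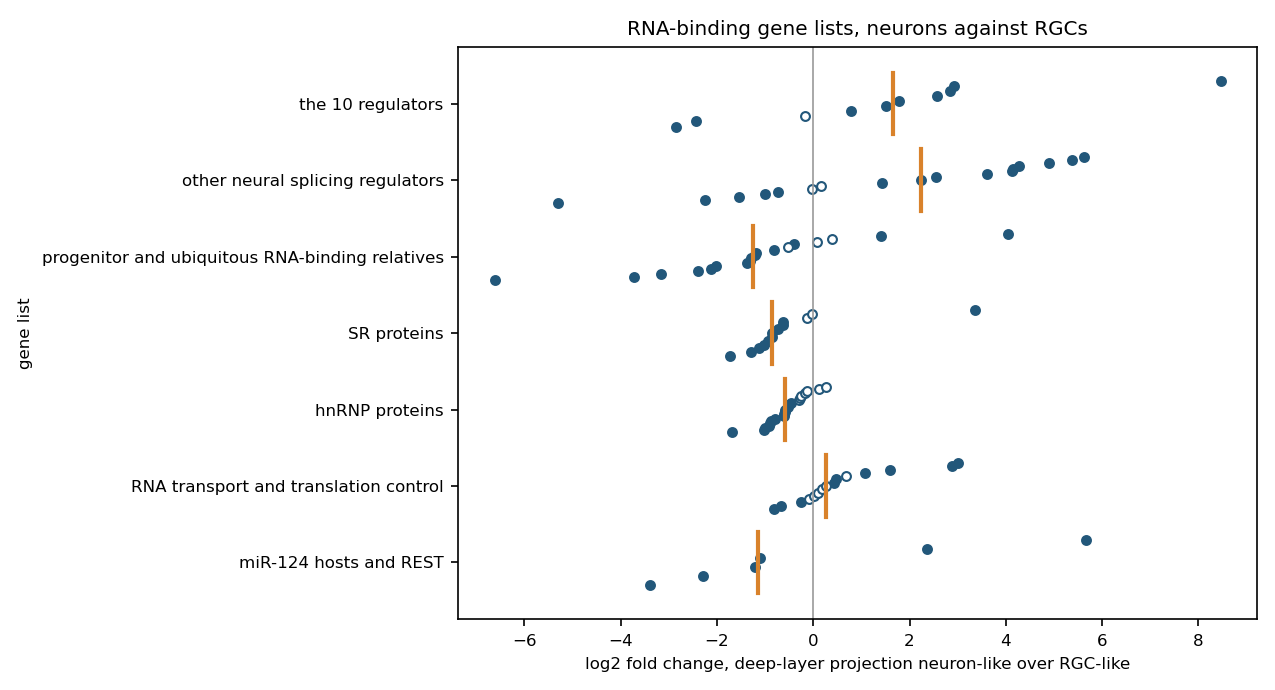
Log2 fold change from RGC-like cells to deep-layer projection neuron-like cells (x axis) for each gene of 7 lists (y axis), filled where the adjusted p was under 0.05, with the median as an orange bar. The medians are 1.65 for the 10 regulators and 2.24 for the other neural splicing regulators, and are below 0 for the progenitor relatives, the SR proteins, the hnRNP proteins and the miR-124 and REST genes.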

How the data were processed

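The authors deposited tables of UMI counts, with genes in rows and barcodes in columns, made with Cell Ranger 7.0.0 on mm10 from 10x Genomics 3' v3.1 libraries. Whether intronic reads were counted, and how cells were called, is not given in the sources used here. The 10 genes, the 6 other lists (93 of 94 genes found) and the comparisons were chosen with earlier results of these data known.

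Cells were required to have at least 1500 and at most 60000 UMIs, with mitochondrial genes below 10%. Doublets were scored on simulated pairs and removed at 0.8% per 1000 barcodes. Cells were clustered with 2000 variable genes, 30 components, 15 neighbours and Leiden resolution 1.0, without the members and list genes. Clusters were named from 121 markers of 17 classes, of which at least 3 had to be on, by a naming rule set after the clusters were seen. Classes with 50 cells in each replicate, 6 in all, gave 12 sums, tested without a block by edgeR's quasi-likelihood test (TMM, filter on low counts, Benjamini-Hochberg adjustment). Of 8 planned comparisons 5 were run, since no cluster was named subplate, Cajal-Retzius-like cells numbered 31 in replicate 1 and CGE interneuron-like cells 25 in replicate 3. The genes named from the lists were, per list and comparison, among the 3 with the largest change past the threshold in the same direction in both replicates. CPM used total UMIs without TMM factors. Intervals are 95% and cover counting error only, with 3 counts as the limit at a count of 0.

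Since each library gave all sums of its replicate, the replicate number pairs the sums (r of paired deviations 0.399 to 0.741 over 1908 genes). In simulated data for IPC against RGC over 15241 genes, 14.8%, 57.6% and 84.5% of changed genes were recovered at log2 fold changes of 0.5, 1 and 2, with 20 false among 127 calls and 0 of wrong sign. The false share was above the threshold of 0.05. Only 200 genes were changed and the sums were drawn without pairing, while 36.2% of real genes were called, so these rates do not carry over to the real comparison. Alternatives included DESeq2, other scaling, filters, clustering and thinning to 3000 UMIs. Promoters and coordinates were taken from RefSeq (GRCm38.p6). Software was Python 3.11.15, scanpy 1.11.5, R 4.3.3, edgeR 4.0.16 and DESeq2 1.42.0.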

Additional observations from a re-analysis of the deposited data

How the results depend on the processing

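The members' 50 fold changes were tested again under 10 settings each. Of these 500 values 474 kept their side of the threshold, 20 lost significance, 6 gained it and 0 of the called values reversed. Values that did not pass could change sign and still count among the 474, as for *Elavl3* in deep vs newborn (0.09, lowest -0.05). The 12 sums come from 2 libraries, so 100 values from 1 replicate alone carry no test. Of these, 0 called values reversed and 12 moved by more than the spread between replicates. The settings with red blood cell sums or the newborn cluster of lowest depth left out were chosen after seeing the data, and all 50 member results kept their call in both.

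With predicted doublets kept, the number of genes past the threshold fell to 2741 for IPC vs RGC, 1831 for deep vs newborn and 3413 for MGE vs deep (5601, 3868 and 5395 without them). In that setting, with 14108 genes tested, 6 members were higher and 1 was lower in IPC vs RGC, and 1 was higher and 2 were lower in deep vs newborn. At Leiden resolution 0.6, 1 member was higher and 3 were lower in deep vs newborn, where 2712 of 15647 genes tested passed. The cause was not tested. The replicate block, which pairs the sums of 1 library, gave 6850 genes for IPC vs RGC, 7383 for newborn vs IPC, 5348 for deep vs newborn, 10817 for deep vs RGC and 5937 for MGE vs deep, and changed no call of a member.

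*Ptbp2* was the member whose calls depended most on the setting. Its difference in IPC vs RGC did not pass with library sizes only, without the filter on low counts, with doublets kept, with the stricter filter on cells or at resolution 0.6 (adjusted p from 0.0548 to 0.09), and in deep vs RGC it passed as lower with library sizes only and with the stricter filter (-0.39 and -0.32). *Ptbp1* did not pass with doublets kept in IPC vs RGC (-0.40, adjusted p = 0.0783) and deep vs newborn (-0.32, adjusted p = 0.216). *Elavl2* and *Ptbp2* in deep vs newborn and *Rbfox2* in IPC vs RGC did not pass with doublets kept or at resolution 0.6, nor did *Nova2* in deep vs newborn with doublets kept, or *Rbfox1* in deep vs newborn and *Rbfox2* in newborn vs IPC at resolution 0.6. *Ptbp2* in MGE vs deep did not pass without the filter on low counts or with doublets kept (0.38 and 0.42), and *Rbfox3* in newborn vs IPC passed with the stricter filter (-0.63). In DESeq2 *Rbfox2* also passed in deep vs newborn and MGE vs deep, and *Rbfox3* in MGE vs deep. The median log2 fold change of all genes was -0.19 in deep vs RGC and -0.09 in newborn vs IPC with library sizes only (0.01 and 0.03 with TMM), and in MGE vs deep 0.08 with library sizes only and 0.12 in DESeq2 (-0.06 with TMM). No called direction of a member turned under these scalings.
Of 200 mean levels in CPM under other cells or clusters 91 moved by over 1 SD of 2 replicates, as did 95 of 100 shares of cells with a UMI at 2000 or 5000 UMIs.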

Other observations

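The unnamed cluster 26, which held 68 cells of replicate 1 and 2 of replicate 3 and was led by *Cntn4*, *Galntl6* and *Cntnap5a*, had 99.6 CPM of *Nova1*, 701 CPM of *Elavl2* and 2522 CPM of *Rbfox1* in replicate 1. The unnamed cluster 22, led by *Hbb-y*, *Hba-x* and keratin genes, had 75.9 and 50.1 CPM of *Ptbp1*. Microglia-like cells were found in replicate 3 alone (20 cells) and had 75.2 CPM of *Ptbp1* from 21 UMIs.

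Endothelial-like cells, 16 and 41 in number, had 45.6 and 71.3 CPM of *Nova2*, where *Elavl3* was 2.85 and 25.6 CPM. In meningeal-like cells *Nova2* was 9.87 and 0.65 CPM. In CGE interneuron-like cells *Rbfox1* was 843 and 94.1 CPM, the latter from 12 UMIs of 25 cells.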
